A study of Homo sapiens with 18 samples.

Results

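The loci of MET and CD44 on hg19 were examined in lists of open-chromatin peaks from 2 human neuroblastoma cell lines, Kelly and BE2C. A locus was the gene body extended by 50 kb on each side, around MET at chr7:116312459-116438440 and around CD44 at chr11:35160417-35253949. Both genes were chosen from the measured values: each gene body holds a region with a peak among the strongest 9204 peaks of each of the 9 Kelly libraries and among the strongest 9204 of no BE2C library, 9204 being the length of the shortest list. The difference between the lines at these lead regions is therefore a description and received no test. Over all 18 full lists the loci held 29 merged regions of 150322, with 24 at MET and 5 at CD44, and 133 of 781454 peaks.

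MET is the receptor tyrosine kinase for hepatocyte growth factor, and its signalling drives cell motility, growth and branching of epithelia. CD44 is a surface receptor for the matrix polymer hyaluronan and is widely used as a marker of mesenchymal and stem-like cell states. Neuroblastoma arises from the sympathoadrenal lineage of the neural crest, and neuroblastoma cells can take adrenergic or mesenchymal states. AHR encodes AhR, a ligand-activated transcription factor that pairs with ARNT and binds DNA elements with the core letters GCGTG.

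The assay was ATAC-seq, where a transposase cuts and tags DNA that is open. Kelly and BE2C cells, both established lines with MYCN amplification per the series title, were transduced with lentivirus carrying the hairpin shAhR-1 or shAhR-2 against AHR, or the empty vector pLKO. The 6 groups were Kelly shAhR-1, Kelly shAhR-2, Kelly pLKO, BE2C shAhR-1, BE2C shAhR-2 and BE2C pLKO, with 3 libraries in each, and both hairpins of a line were set against the same 3 pLKO libraries. The labels describe triplicates without saying that they were separate cultures or transductions, so the p-values below reflect how far these libraries spread, and that spread may be technical.

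Kelly lists held 9204, 24424 and 23806 peaks for shAhR-1, 64808, 60457 and 65740 for shAhR-2, and 34848, 19984 and 30053 for pLKO. BE2C lists held 45023, 27140 and 25660 peaks for shAhR-1, 75798, 77607 and 81637 for shAhR-2, and 34343, 36525 and 44397 for pLKO. Sequencing depth is not in the lists. As a stand-in, the read background across the genome, solved from fold and p-value, lay between 0.601 reads per position in Kelly shAhR-1 replicate 1 and 4.42 in BE2C shAhR-2 replicate 3.

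The promoters of both genes are shown because the peaks at the gene starts serve below as the yardstick for the lead regions. The sequences need not cover the summits of those peaks. The sequences are those of RefSeq on GRCh38.p14, plus strand, from 250 bases before to 50 bases after the start, and their coordinates are not comparable with the hg19 coordinates used for the peaks. Capitals mark a match to GCGTG on either strand (CACGC is its reverse complement), the core of the AhR element; TGANTCA, the letters bound by AP-1 factors, was also searched on both strands.
MET promoter, chr7:116671946-116672245: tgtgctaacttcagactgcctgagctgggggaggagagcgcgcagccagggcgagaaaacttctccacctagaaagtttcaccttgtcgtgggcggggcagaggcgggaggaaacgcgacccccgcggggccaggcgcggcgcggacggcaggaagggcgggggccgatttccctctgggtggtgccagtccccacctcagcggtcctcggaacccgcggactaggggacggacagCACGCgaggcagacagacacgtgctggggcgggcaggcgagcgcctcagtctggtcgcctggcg
CD44 promoter, chr11:35138921-35139220: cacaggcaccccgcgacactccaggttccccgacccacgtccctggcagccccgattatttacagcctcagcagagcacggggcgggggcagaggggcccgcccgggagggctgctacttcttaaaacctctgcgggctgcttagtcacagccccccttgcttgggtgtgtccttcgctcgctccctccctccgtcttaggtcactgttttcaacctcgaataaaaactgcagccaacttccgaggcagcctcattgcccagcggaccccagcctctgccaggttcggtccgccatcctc
The MET promoter had a GC content of 69.3% with 30 CpG pairs, and it held 1 GCGTG match, on the minus strand 14 bases before the start. The CD44 promoter had a GC content of 63.3% with 18 CpG pairs and held neither set of letters. Among 35116 RefSeq promoters of the same length, 36.5% held GCGTG and 7.71% held TGANTCA, so the match at MET is common and says nothing by itself about binding.

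In Kelly cells the strongest site of the MET locus lay inside the gene and not at its start. The lead region, chr7:116363786-116364920 on hg19, was 1135 bp wide, and the median summit lay 51626.5 bp into the gene body. Whether it falls in an exon or an intron, and its sequence, were not analysed here. The Kelly summits in it lay within 117 bp of each other.

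The fold of a peak is the authors' own value for enrichment over local background at the summit. At the MET lead region the fold was 8.06, 11.5 and 9.58 in Kelly shAhR-1, 12.1, 10.4 and 13.8 in Kelly shAhR-2, and 14.5, 7.91 and 15.0 in Kelly pLKO. The ranks by p-value, with 1 the strongest peak of a list, were 958, 2120 and 3375 in Kelly shAhR-1, 1663, 1957 and 1369 in Kelly shAhR-2, and 1648, 3369 and 1428 in Kelly pLKO. All 3 Kelly groups overlapped each other on both measures, and replicate 2 of Kelly pLKO had the lowest fold of the 9.

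The pileup, meaning how many reads overlap at a summit, was solved from the fold and p-value of each peak and divided by the genome-wide background of the library. At the MET lead region it was 29.95, 27.6 and 22.4 times background in Kelly shAhR-1, 48.0, 42.8 and 55.9 times in Kelly shAhR-2, and 59.2, 18.2 and 63.6 times in Kelly pLKO. The means were 26.7 ± 3.87, 48.9 ± 6.61 and 47.0 ± 25 times background in the same 3 groups (SD, n = 3 each). Kelly shAhR-2 lay above Kelly shAhR-1 with no overlap, a separation absent from the ranks, while Kelly pLKO spanned both hairpin groups. The median fold of the strongest 9204 peaks of each list also separated the hairpins. It was 5.46, 8.37 and 7.97 in Kelly shAhR-1 and 9.48, 9.07 and 10.3 in Kelly shAhR-2. Fold is another measure than pileup over background, and at the MET lead region itself the folds of the hairpins overlapped. Pileups were not compared over all regions, so whether their separation was particular to MET was not tested. At the CD44 lead region, given below, the pileups of the hairpins overlapped.

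In BE2C cells the MET lead region was weak or not called. No peak was listed there in any of the 3 BE2C shAhR-1 or 3 BE2C pLKO libraries. The 3 BE2C shAhR-2 libraries, which had the longest lists of the series, each held one, with folds of 3.41, 4.61 and 5.16 at ranks 66944, 48698 and 39765. Their pileups were 4.12, 5.64 and 6.10 times background. The lowest pileup of any listed peak was 4.26, 4.58 and 4.96 times background in BE2C shAhR-1, 3.24, 3.1 and 2.71 times in BE2C shAhR-2, and 4.63, 4.68 and 4.31 times in BE2C pLKO. The 5.64 and 6.10 of BE2C shAhR-2 replicates 2 and 3 lie above the lowest listed pileup of each BE2C shAhR-1 and BE2C pLKO library, and the 4.12 of replicate 1 lies under it. No listed peak does not by itself mean that a site was closed.

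**Figure D1:**
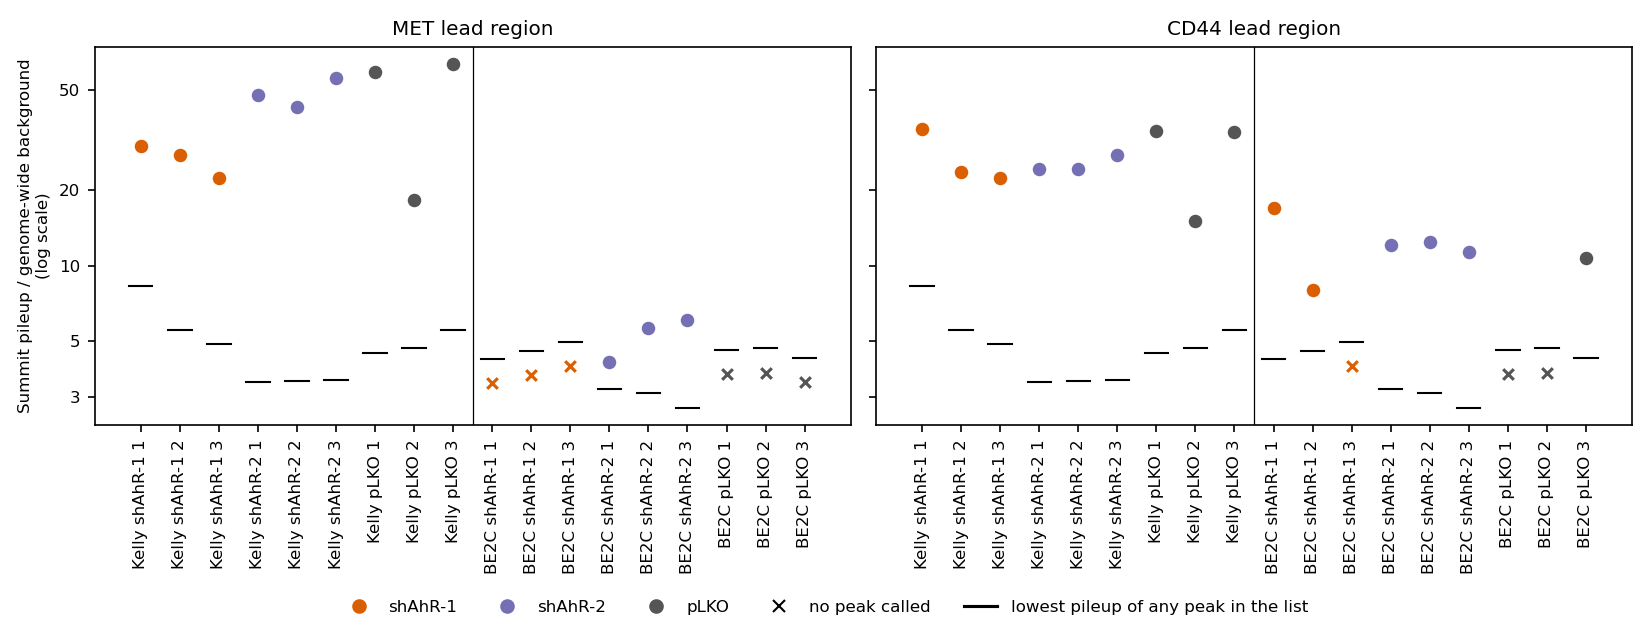
Summit pileup over the genome-wide background (log axis) at the MET and CD44 lead regions, 1 column per library; a cross marks a library with no peak there (drawn under the dash, with no value of its own) and a dash the lowest pileup of any peak in that library's list. Kelly points lie between 18.2 and 63.6 times background at MET and between 15.1 and 34.9 at CD44, above the BE2C points at MET and all but the 17 of BE2C shAhR-1 replicate 1 at CD44.

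The CD44 lead region lay in the far part of the gene, and most BE2C libraries listed it as well. It covered chr11:35244774-35245647, 874 bp wide, with the median summit 84726 bp into the gene body. The Kelly summits lay within 83 bp of each other and the BE2C summits within 46 bp.

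At the CD44 lead region the fold was 11.2, 9.74 and 9.90 in Kelly shAhR-1, 9.26, 11.5 and 11.1 in Kelly shAhR-2, and 12.7, 7.81 and 11.5 in Kelly pLKO. The pileup was 34.9, 23.7 and 22.4 times background in Kelly shAhR-1, 24.4, 24.3 and 27.8 times in Kelly shAhR-2, and 34.4, 15.1 and 34.2 times in Kelly pLKO. The group means were 27.0 ± 6.90, 25.5 ± 1.97 and 27.9 ± 11.1 times background in that order (SD, n = 3 each), and the 3 groups overlapped.

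In BE2C, 6 of 9 full lists held the CD44 lead region. The fold was 11 and 5.46 in BE2C shAhR-1 replicates 1 and 2, with no peak in replicate 3. It was 9.07, 9.18 and 8.75 in BE2C shAhR-2, and 7.35 in BE2C pLKO replicate 3, with no peak in BE2C pLKO replicates 1 and 2. These peaks ranked 13157 and 17821 in BE2C shAhR-1, 22055, 20151 and 18518 in BE2C shAhR-2, and 23051 in BE2C pLKO. The same 6 libraries also held it within the strongest 25660 peaks, the length of the shortest BE2C list, against 0 of 9 for the MET lead region. The fold at CD44 thus overlapped between the lines, 7.81 to 12.7 in Kelly and 5.46 to 11 where called in BE2C. The pileup over the genome-wide background separated the lines further. In BE2C shAhR-1 replicates 1 and 2 it was 17 and 8.01 times background. BE2C shAhR-2 had 12.1, 12.4 and 11.3 times background, and BE2C pLKO replicate 3 had 10.8 times. All but the 17 of BE2C shAhR-1 replicate 1 lay under the lowest Kelly pileup, the 15.1 of pLKO replicate 2. The description of an open site in Kelly alone still rests at CD44 on the list length of 9204.

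**Figure D2:**
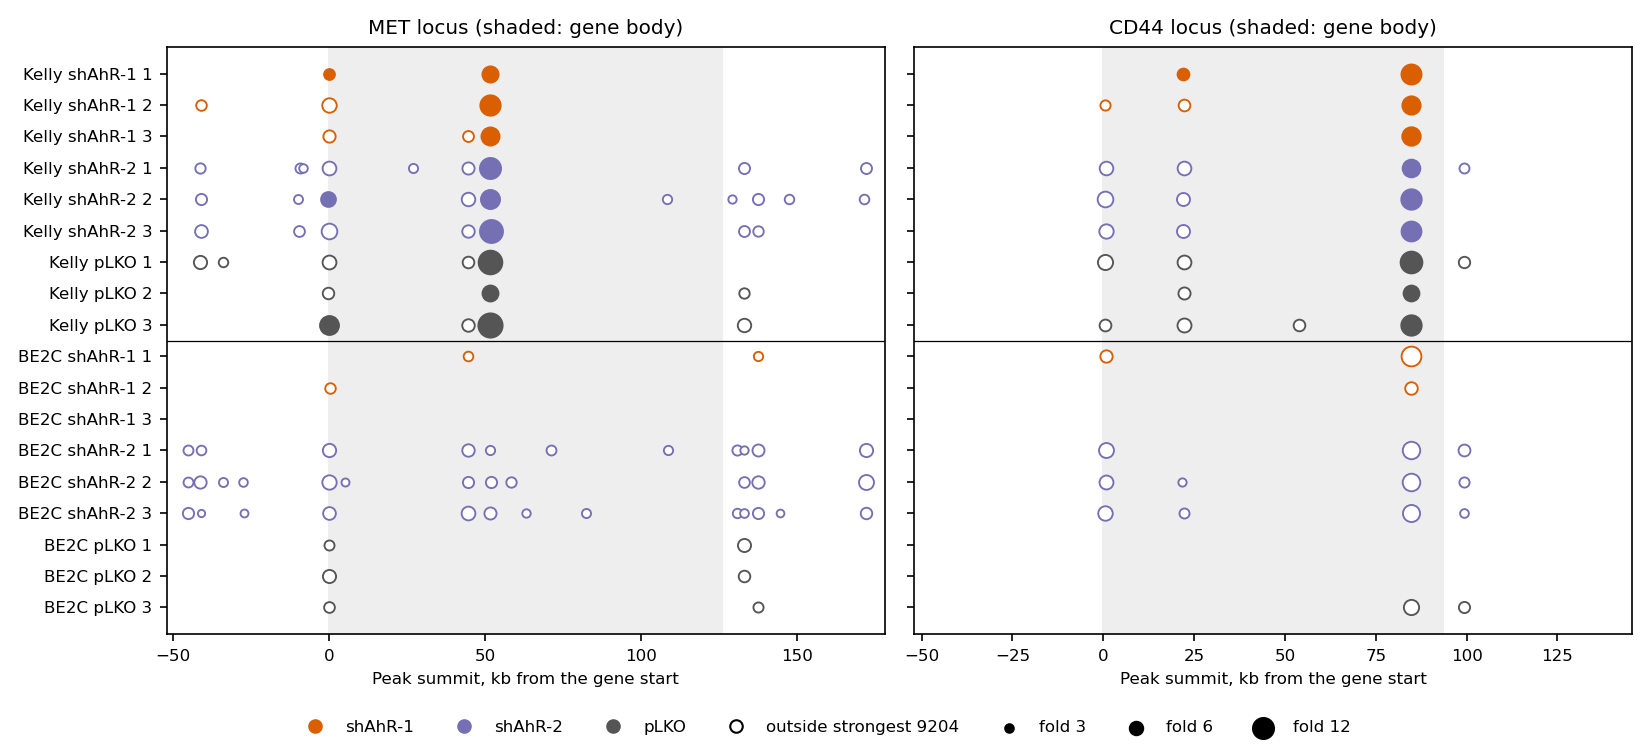
Peaks of each of the 18 libraries along the MET and CD44 loci, by the distance of the summit from the gene start in kb; the area of a circle grows with the fold, filled circles are among the strongest 9204 peaks of the list and the shaded band is the gene body. The lead regions at 51626.5 bp in MET and 84726 bp in CD44 are filled in the 9 Kelly libraries and open or missing in BE2C.

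Regions with this pattern were rare but not confined to these genes. A peak in all 9 Kelly and no BE2C list of the common length was found for 83 of 19921 regions, or 0.417% of them. Ordered by mean rank over the Kelly libraries, the MET lead region was number 19 of the 83, with a mean rank of 1987, and the CD44 lead region number 53, with a mean rank of 4829. The opposite pattern, all 9 BE2C and no Kelly list, held for 169 regions (0.848%), and 2994 regions (15.0%) were in all 18 lists.

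The local background of a peak, the reads the caller took as the level around it, differed between the lines at these sites. It was read at the same peaks that chose the genes, and 1.00 is by definition about the lowest value it takes. At the MET lead region it was 1.69 to 3.79 times the genome-wide background in Kelly, against 1.00 times in the 3 BE2C shAhR-2 libraries that held a peak. Within Kelly it was 1.69 to 2.26 times where the pileup there was 18.2 to 29.95 times background. It was 3.49 to 3.79 times where the pileup was 42.8 to 63.6 times. Whether the local background is separate from the height of the peak was not tested. At the CD44 lead region it was 1.48 to 2.32 times the genome-wide background in Kelly, against 1.00 to 1.1 times in the 6 BE2C libraries. Within 5 Mb on each side of CD44 lay 0.261% to 0.348% of the peaks of a Kelly list of the common length and 0.174% to 0.261% of a BE2C list. Around MET the shares were 0.163% to 0.250% in Kelly and 0.206% to 0.261% in BE2C. The median local background of the peaks in these spans overlapped between the lines. Around MET it was 1.15 to 1.90 times the genome-wide background in Kelly and 1.13 to 1.60 times in BE2C. Around CD44 it was 1.06 to 1.46 times in Kelly and 1.01 to 1.51 times in BE2C. The part of these values in the difference between the lines was not tested.

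The gene start of MET was open in both lines. The region over it, chr7:116311763-116313167, was 1405 bp wide. In Kelly all 9 full lists held it, with folds of 4.37, 6.78 and 5.26 for shAhR-1, 6.30, 7.06 and 7.67 for shAhR-2, and 6.34, 4.78 and 10.3 for pLKO. In BE2C 7 of 9 did, with folds of 4.15 in shAhR-1 replicate 2, 5.95, 6.69 and 5.57 in shAhR-2, and 3.88, 5.85 and 4.30 in pLKO. It was among the strongest 9204 peaks of 3 Kelly libraries, 1 in each group, and of 0 BE2C libraries. The fold ranges of the lines overlapped, from 4.37 to 10.3 in Kelly and from 3.88 to 6.69 in BE2C.

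The order of the lead region and the gene start of MET was opposite in the lines wherever both were listed. In each of the 9 Kelly libraries the lead region ranked ahead, with a fold 1.46 to 2.29 times that of the gene start. In the 3 BE2C shAhR-2 libraries that listed both, the gene start ranked ahead, and the fold of the lead region was 0.573, 0.688 and 0.927 times that of the gene start. The other 4 BE2C libraries with a peak at either site listed the gene start alone. This ratio is taken within a library, so it does not depend on the list length, but it rests on the same lead peaks that chose the gene.

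At CD44 the lead region ranked ahead of the gene start in both lines. The region over the gene start, chr11:35160192-35161829, was 1638 bp wide. Its median summit lay 602 bp into the gene body, so the promoter sequence shown above may not cover it. It was listed in 6 of 9 Kelly libraries, with folds of 3.97 in shAhR-1 replicate 2, 6.19, 7.69 and 6.69 in shAhR-2, and 7.26 and 4.95 in pLKO replicates 1 and 3. It was listed in 4 of 9 BE2C libraries, with folds of 5.30 in shAhR-1 replicate 1 and 7.13, 6.39 and 6.81 in shAhR-2, and in no BE2C pLKO library. Where both sites were listed, the fold of the lead region was 1.5 to 2.45 times that of the gene start in Kelly and 1.27 to 2.07 times in BE2C.

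**Figure D3:**
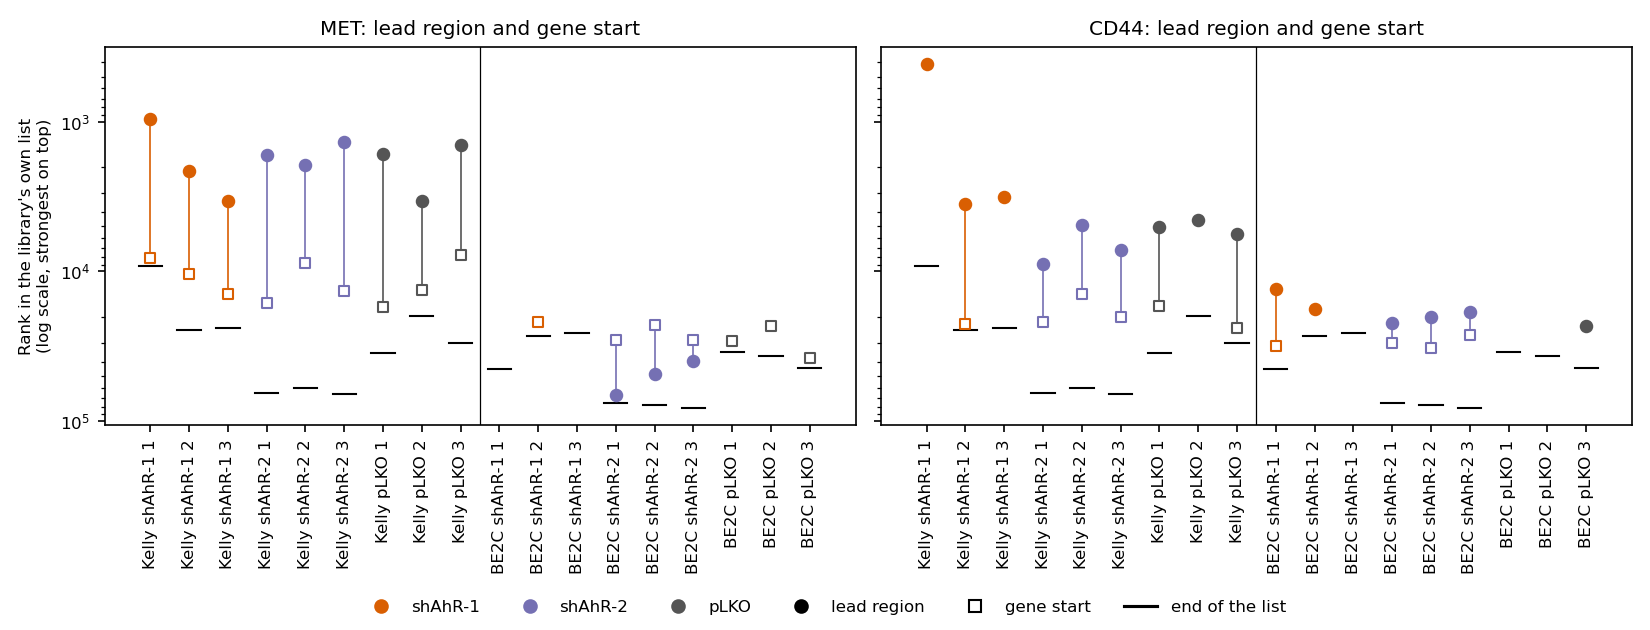
Rank of the lead region (filled circle) and of the gene-start region (open square) in each library's own list, on a log axis with the strongest peak on top; a dash marks the end of the list. At MET the circle is above the square in 9 Kelly libraries and below it in the 3 BE2C libraries with both, whereas at CD44 the circle is on top in both lines.

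The other 22 MET regions had folds of 2.36 to 7.17 and ranks of 15411 to 78570, and none had a peak in any list of the common length. The other 3 CD44 regions had folds of 2.86 to 6.43 and ranks of 6411 to 74770. At MET, 11 of 24 regions were in 1 list alone and 17 were in shAhR-2 lists alone. At CD44, 1 of 5 was in 1 list alone and 0 were in shAhR-2 lists alone. The shares of all regions with these patterns were not counted, and the shAhR-2 lists were the longest of each line. These counts therefore do not set the loci apart from other regions.

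The next regions were chosen after their values were seen, as those in the most lists after the lead and gene-start regions. Between the start and the lead region of MET, with its median summit 44459 bp into the gene body, chr7:116356650-116357411 was listed in 6 Kelly and 4 BE2C libraries, with folds of 4.39 to 6.10 in Kelly and 3.65 to 6.27 in BE2C. Downstream of MET, chr7:116445223-116445571 was listed in 4 Kelly and 5 BE2C libraries, among them BE2C pLKO replicates 1 and 2. Upstream of MET, chr7:116270760-116271791 was listed in 5 Kelly libraries and in the 3 BE2C shAhR-2 libraries. In CD44, chr11:35182102-35183057 was listed in 8 of 9 Kelly libraries with folds of 4.89 to 6.43, in shAhR-1 replicate 1 among the strongest 9204 peaks, and in BE2C shAhR-2 replicates 2 and 3 at 2.86 and 3.87.

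For each bound of the windows, the outermost peak inside, where there was one, and the first outside are given. How many peaks lay near the bounds was not counted. Upstream of MET the outermost peak inside lay 45239 bp from the gene body, with a fold of 3.77 in BE2C shAhR-2 replicate 2, and the first outside lay at 66797 bp, with a fold of 2.94 in Kelly shAhR-2 replicate 3. Downstream of MET they lay at 45900 bp (7.17, BE2C shAhR-2 replicate 2) and 53199 bp (2.77, BE2C shAhR-2 replicate 1). Around CD44 the outermost inside lay 5656 bp downstream (3.96, BE2C shAhR-2 replicate 2), and the first outside lay 73341 bp downstream (4.60, Kelly shAhR-2 replicate 1) and 74414 bp upstream (3.25, Kelly pLKO replicate 1).

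When lists were taken whole, the mean number of peaks was highest with shAhR-2 at MET in both lines and at CD44 in BE2C, while at CD44 in Kelly shAhR-2 and pLKO had the same mean. At MET it averaged 1.0 ± 1.0 in BE2C shAhR-1, 12 ± 1.0 in BE2C shAhR-2 and 2.0 ± 0 in BE2C pLKO (SD, n = 3 each). In Kelly it averaged 2.67 ± 0.577 in shAhR-1, 8.67 ± 1.53 in shAhR-2 and 4.0 ± 1.0 in pLKO. At CD44 it averaged 1.0 ± 1.0 in BE2C shAhR-1, 3.67 ± 0.577 in BE2C shAhR-2 and 0.667 ± 1.15 in BE2C pLKO, and 2.0 ± 1.0, 3.33 ± 0.577 and 3.33 ± 1.15 in Kelly shAhR-1, Kelly shAhR-2 and Kelly pLKO. The shAhR-2 libraries also had the longest lists and the highest genome-wide background of each line, 3.4 to 4.42 reads in BE2C shAhR-2 against 1.5 to 1.86 in BE2C pLKO, and 2.56 to 2.91 in Kelly shAhR-2 against 1.26 to 1.92 in Kelly pLKO.

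Regions listed with a hairpin and not with pLKO, or the reverse, were counted against all regions, without a test. Each count leaves the lists of the other hairpin aside. In BE2C, 5 of 18 MET regions and 1 of 4 CD44 regions were in all 3 shAhR-2 full lists and no pLKO list, a pattern that held for 13.5% of all 112448 BE2C regions. In Kelly, 0 of 16 MET and 0 of 5 CD44 regions had it, against 12.1% of 100814 Kelly regions. No MET or CD44 region was in all 3 shAhR-1 and no pLKO list, a pattern of 0.147% of BE2C and 0.0764% of Kelly regions. Nor was any in all 3 pLKO lists and no list of a hairpin; for shAhR-1 this held for 0.78% of BE2C and 0.908% of Kelly regions, and for shAhR-2 for 0.16% of BE2C and 0.217% of Kelly regions.

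In BE2C lists of equal length the number of peaks at the loci showed no difference between the hairpins and pLKO that passed the test. At MET it averaged 0.5 for the 6 BE2C hairpin libraries and 0.667 for the 3 BE2C pLKO libraries (two-sided exact permutation test, p = 1.0). At CD44 it averaged 0.833 for the hairpins and 0.333 for pLKO (exact p = 0.464). Each of these CD44 peaks was the one at the lead region, which the rule had kept outside the strongest 9204 of every BE2C list. The CD44 number thus says only whether that peak was listed, and it is not independent of the choice of the gene. In Kelly the choice of the genes fixes 1 peak in each list of 9204, so the number is a description with no test: at MET it averaged 1.33 for the hairpins and 1.33 for pLKO, and at CD44 1.17 for the hairpins and 1.0 for pLKO. The tests ran over 84 arrangements with a smallest possible p of 0.0119, without adjustment, and each list held few peaks at a locus, which limits what they can show.

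The strength of the lead regions after the hairpins was tested in Kelly, where all 9 libraries held them. The measure, called standing here, was log2 of the list length over the rank, in lists of 9204 peaks, so that 1 unit more means a rank 2 times nearer the top. limma was fitted over all 3988 regions held by the 9 libraries, with Benjamini-Hochberg adjustment over them. At an adjusted p under 0.05 it called 0.351% of the regions for both hairpins together, 0.201% for shAhR-1 alone and 4.96% for shAhR-2 alone, each set against pLKO. Neither lead region was among them. The rule had required both lead regions within the strongest 9204 peaks of every Kelly library, hairpin and pLKO alike. A region that a hairpin moved out of those lists could not have been chosen, so the fit cannot show such a loss.

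The MET lead region had a standing of 2.38 with the hairpins and 2.21 with pLKO, a difference of 0.17 (SE 0.42, 95% interval -0.73 to 1.08, adjusted p = 0.892). With shAhR-1 alone the difference from pLKO was 0.07 (SE 0.49, interval -0.98 to 1.12, adjusted p = 0.966), and with shAhR-2 alone it was 0.28 (SE 0.49, interval -0.77 to 1.32, adjusted p = 0.785). As a share of each library's own list, the ranks of the MET lead region stood at 10.4%, 8.68% and 14.2% in Kelly shAhR-1, 2.57%, 3.24% and 2.08% in Kelly shAhR-2, and 4.73%, 16.9% and 4.75% in Kelly pLKO, with shAhR-2 ahead of both other groups. Taking the share moves every region of a library by the same amount, so it does not bear on MET alone. The intervals leave room for a change of about 1 unit either way, so a shift of that size in MET could not be told from none. The direction of the pooled difference turned without Kelly shAhR-1 replicate 1, to -0.07, and without Kelly pLKO replicate 2, to -0.20.

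The ranks of the CD44 lead region were 413, 3567 and 3197 in Kelly shAhR-1, 8921, 4933 and 7197 in Kelly shAhR-2, and 5078, 4503 and 5649 in Kelly pLKO. By these ranks the shAhR-1 libraries lay ahead of the pLKO libraries, while shAhR-2 and pLKO overlapped. As a share of each library's own list, however, the ranks stood at 4.49%, 14.60% and 13.4% in Kelly shAhR-1, 13.8%, 8.16% and 10.9% in Kelly shAhR-2, and 14.57%, 22.5% and 18.8% in Kelly pLKO. By that share the 3 shAhR-2 libraries lay ahead of the pLKO libraries, shAhR-1 overlapped both groups, and the order of the groups thus depends on how list length is treated. Replicate 1 of shAhR-1, whose list is the shortest of all, held the highest rank by a wide margin.

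The standing of the CD44 lead region was 2.46 with shAhR-1 and 0.86 with pLKO, a difference of 1.59 (SE 0.65, interval 0.20 to 2.98) that did not pass the adjustment (limma, unadjusted p = 0.0276, adjusted p = 0.269). Under shAhR-2 it came to 0.43, against 0.86 under pLKO, a difference of -0.43 (SE 0.65, interval -1.82 to 0.96, adjusted p = 0.740). Without shAhR-1 replicate 1 the difference of shAhR-1 from pLKO was 0.58 (adjusted p = 0.442). With both hairpins it was 1.45 against 0.86 with pLKO, a difference of 0.58 (SE 0.56, interval -0.62 to 1.78, adjusted p = 0.677). The median difference over all 3988 regions was -0.18 for shAhR-1, -0.04 for shAhR-2 and -0.09 for both.

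Set against each other, a comparison added after the data were seen, shAhR-2 and shAhR-1 gave the CD44 lead region a standing of 0.43 and 2.46, a difference of -2.02 (SE 0.65, interval -3.41 to -0.63, limma adjusted p = 0.0539). The list length moved with this difference, 60457 to 65740 peaks for shAhR-2 against 9204 to 24424 for shAhR-1, and its part was not tested. The adjusted p lay just outside the threshold, which 12.9% of all regions passed in the same comparison. It came inside when 1 library was left out in 3 of 9 cases, with adjusted p = 0.0361 without shAhR-1 replicate 2, 0.0415 without shAhR-1 replicate 3 and 0.0445 without pLKO replicate 2. Over the 9 cases the adjusted p ranged up to 0.164 and the difference from -2.57 to -1.01, the value nearest 0 being that without shAhR-1 replicate 1. At the MET lead region the same difference was 0.21 (interval -0.84 to 1.25, adjusted p = 0.816). The fold at the CD44 lead region, 9.26 to 11.5 in Kelly shAhR-2 and 9.74 to 11.2 in Kelly shAhR-1, showed no such separation, and neither did the pileup over background.

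**Figure D4:**
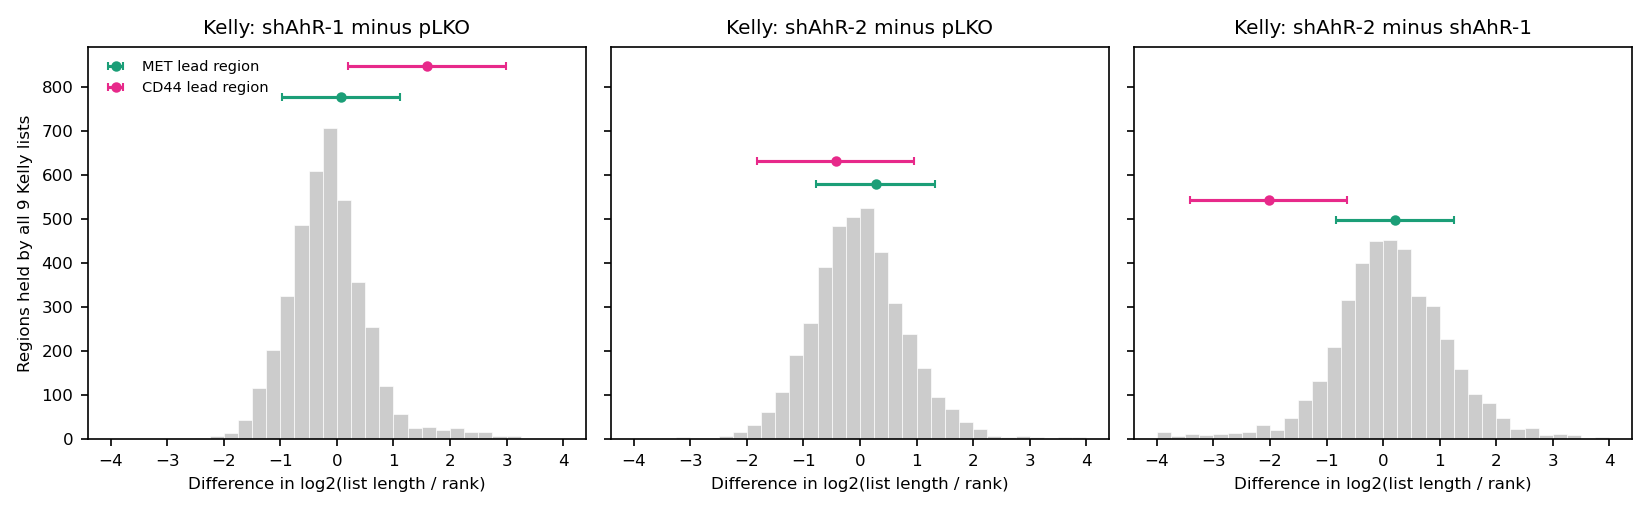
Differences in log2(list length / rank) between Kelly groups over the 3988 regions held by all 9 Kelly lists (grey bars, number of regions; the end bars pool values beyond 4 units), with the MET and CD44 lead regions as points and their 95% intervals as lines, set at arbitrary heights. The MET intervals span 0 in each panel, while the CD44 intervals lie above 0 for shAhR-1 minus pLKO (0.20 to 2.98) and below 0 for shAhR-2 minus shAhR-1 (-3.41 to -0.63) before adjustment over regions.

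In BE2C the MET lead region could not be fitted, since no BE2C list cut to 25660 peaks held it; over the 15099 regions that all 9 held, 14.3% were called for both hairpins against pLKO. The CD44 lead region was held by 6 of 9 BE2C lists and was fitted with missing ranks set to the list length, an alternative applied to it after the data were seen. Its standing was 0.42 with the hairpins and 0.05 with pLKO, a difference of 0.37 (interval -0.12 to 0.85, limma adjusted p = 0.293) where 13.0% of 21817 regions were called. With shAhR-1 alone the difference from BE2C pLKO was 0.44 (limma adjusted p = 0.362, with 3.29% of regions called), and with shAhR-2 alone 0.29 (adjusted p = 0.429, with 24.9% called). These values rest in part on 3 imputed ranks, 1 in BE2C shAhR-1 and 2 in BE2C pLKO. The rule had also kept the CD44 lead region out of every BE2C list of the common length, hairpin and pLKO alike. A region that a hairpin raised into those lists could not have been chosen, so this fit cannot show such a gain.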

How the data were processed

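Per the labels, the 18 libraries are ATAC-seq of Kelly and BE2C with shAhR-1, shAhR-2 or pLKO. MACS2 2.1.0, BWA 0.7.17, deepTools 3.1.3, Trimmomatic 0.33, CASAVA 1.8.2 and hg19 are named, per the submitters' processing notes. Not given in the sources used here are their settings, the handling of duplicates and any transposase offset, which could shift summits slightly and alter the peaks that passed. The authors deposited 1 peak list per library, without pooling, with an integer score, a linear fold ratio, and −log10 p and −log10 q values per peak.

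Peaks on chromosomes 1 to 22 and X were merged across lists at an overlap of 1 bp. Peaks were ranked by −log10 p within a list, and lists were cut to equal length, 9204 for Kelly and across lines and 25660 for BE2C. Ranks were fitted with limma 3.58.1 in R 4.3.3, without a replicate block, on the 9 libraries of a line. Peak numbers were compared by exact permutation. Pileup and background were solved from fold and Poisson p with a pseudocount of 1, for at least 98.9% of peaks except 65.6% in Kelly shAhR-1 replicate 1. The genome-wide background is the lowest local value shared by at least 10 peaks. Functions were tested on simulated data. Described by coordinates are regions held, at the common length, by all 3 libraries of a group, and those at gene starts, plus 4 further regions chosen after their values were seen. The members, lists and tests were chosen with earlier results of these data known. Alternatives were another order of peaks, list length, overlap, gene body, threshold, imputation, left-out libraries and a replicate block. No genome or annotation of hg19 was used, so exons, pathway genes, cell type markers and the AHR level were not analysed here.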

Additional observations from a re-analysis of the deposited data

How the results depend on the processing

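The lead regions gave 8 results with 100 alternative values, of which 3 passed the threshold and 9 changed sign. The peak numbers gave 4 results with 56 alternative values, of which 0 passed and 4 changed sign. Their Kelly values are limited by the choice of the genes, so for Kelly the lack of a pass is no test. The main BE2C value at CD44 counts the lead region alone, which that choice limits as well. With peaks ordered by fold, the Kelly difference at the MET lead region was -0.039 for both hairpins and -0.30 for shAhR-1 against pLKO, and at the CD44 lead region 0.30 for shAhR-2 against pLKO; the cause was not tested. With uncut lists and a −log10 q minimum of 5, hairpins minus pLKO peak numbers were 3.0 at MET in BE2C and -0.667 at CD44 in Kelly, and in the MET gene body alone 0.333 in BE2C. The 14 regions called in Kelly became 2 when ordered by fold, 35 with imputed ranks and 5 at 50% coverage; the 2157 in BE2C became 358 when ordered by fold, 1091 with lists cut to 0.5 of their length and 1101 at 50% coverage.

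With 1 library left out, the Kelly difference from pLKO at the MET lead region ranged from -0.20 to 0.41 for both hairpins, -0.42 to 0.48 for shAhR-1 and -0.10 to 0.52 for shAhR-2, and shAhR-2 minus shAhR-1 from -0.21 to 0.70. At the CD44 lead region the ranges were 0.08 to 0.85, 0.58 to 2.14, -0.66 to -0.24 and, for shAhR-2 minus shAhR-1, -2.57 to -1.01. Peak number differences ranged from -0.267 to 0.333 at MET in Kelly, -0.5 to 0 at MET in BE2C, -0.933 to 0.2 at CD44 in Kelly (the lowest without shAhR-1 replicate 1, which lengthens the lists) and 0.333 to 0.867 at CD44 in BE2C. The regions called ranged from 2 to 206 in Kelly and 918 to 2896 in BE2C.

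With the replicate block the pooled difference was 0.17 at the MET lead region (adjusted p = 0.894) and 0.58 at the CD44 lead region (adjusted p = 0.679), 13 regions were called in Kelly, and no call at the loci changed. Same-numbered libraries had correlations of -0.160 to 0.111 in Kelly and -0.244 to 0.0947 in BE2C, so the numbers were not taken as pairs. At 0.5 of the list length the CD44 lead region was no longer in all 9 lists, and at 50% coverage neither lead region was, so these settings gave no value. Lists end at the caller's threshold, so the shortest list limits each comparison and faint peaks cannot be told from none.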

Other observations

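Among 81 other regions open in all 9 Kelly and no BE2C list of the common length, those with ranks most like the MET lead region over the 9 Kelly libraries were chr1:142705290-142706248, chr16:34740001-34741681 and chr4:93226061-93227549. Their mean absolute log2 rank differences from it were 0.41, 0.47 and 0.56. Closest to the CD44 lead region were chr10:99789641-99791252 (0.57), chr7:125155833-125156825 (0.58) and chr17:44667686-44668926 (0.59). Genes at these positions were not analysed here. Peaks were filtered here by chromosome alone, so peaks in repeats were not set apart among these regions.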
